A study of Mus musculus with 50 samples.

Results

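The RNA pool left in mouse embryonic stem cells after 8 h of actinomycin D was compared between cells lacking all 3 Ythdf m6A readers and WT cells of the same line. The members were the 4 libraries labelled Triple_KO at 8 h and the 4 libraries labelled WT at 8 h, 8 of the 50 libraries of the series. Triple_KO cells carried the genotype Ythdf1-/-Ythdf2-/-Ythdf3-/-, and both groups were KH2 embryonic stem cells of a C57BL/6 x 129/Sv background. All cells were kept in serum with LIF, a cytokine that holds embryonic stem cells undifferentiated, and were plated on gelatin 48 h before the medium was exchanged for one with 5 µM actinomycin D. The same genotypes at 0 h and 4 h, and the single knockouts Ythdf1_KO, Ythdf2_KO and Ythdf3_KO at 8 h, were used only for reference. Each group had replicates A and B, with 2 duplicate libraries each at 0 h and 8 h and 1 library each at 4 h. The labels name neither the edited exons nor the number of clones, and do not give the origin of A and B, so the p-values measure the spread between these samples, which may be technical.

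N6-methyladenosine (m6A) is a base modification that a methyltransferase complex places on mRNA, most densely around stop codons and in long exons. YTHDF proteins are cytoplasmic readers that bind m6A through a YTH domain, and YTHDF2 is known to recruit the CCR4-NOT deadenylase to methylated transcripts. Actinomycin D intercalates into DNA and blocks RNA polymerases, so that after hours of treatment the pool consists of transcripts made earlier and not yet degraded.

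The values were FPM, reads near the 3′ end of a transcript scaled to a common library total, with no length correction. The 8 libraries held 875830 to 1698700 reads, 1365470 to 1698700 in Triple_KO and 875830 to 1185080 in WT, so the Triple_KO libraries were the deeper ones. Replicates A and B of a group differed no more than duplicate libraries did (chi-square per degree of freedom 1.36 to 1.497 for A against B, 1.35 to 1.55 for duplicates). Of 8 embryonic stem cell markers, 7 were at 5 FPM or more in all 8 libraries, among them Pou5f1, at 852.5 to 994.5 FPM in Triple_KO and 929 to 1035 FPM in WT. The exception was Nanog, at 0.589 to 3.66 FPM in Triple_KO and 0 to 3.01 FPM in WT, and its counts were too low for a comparison. Fewer cells and less RNA per cell cannot be told apart in bulk libraries, and no spike-in is named in the labels, so each level is relative to the library total.

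The listed genes took up more of the Triple_KO libraries than of the WT libraries at 8 h. They held 41.4, 40.4, 43.0 and 39.5% of the reads in the Triple_KO libraries, against 33.0, 33.3, 32.9 and 33.4% in the WT libraries (here and below, the 2 libraries of replicate A come first and those of replicate B after them). The lowest Triple_KO library stood above the highest WT library, and the difference was 7.94 percentage points (two-sided exact permutation test over libraries, p = 0.0286, the smallest that 4 against 4 allows). Duplicate libraries are not independent samples, and an exact test over replicates, 2 against 2, cannot go below p = 0.33. At 0 h the share was 43.7 to 45.3% in Triple_KO and 42.4 to 43.9% in WT. What the remaining reads of each library were is not given in the sources used here.

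Against the library total, most transcripts were more abundant in Triple_KO than in WT after 8 h. Of 7033 genes that reached 5 FPM in 2 or more of the 10 replicate means at 8 h, 2479 (35.2%) differed at an adjusted p below 0.05 in limma, of which 2359 (33.5%) were higher and 120 (1.71%) lower in Triple_KO. The median log2 difference was 0.44, 82.5% of the genes had a positive difference, and the middle 90% of genes lay between -0.33 and 1.601. Among the called genes, 1178 were at least 2-fold higher and 30 at least 2-fold lower, and 132 were at least 4-fold higher and 2 at least 4-fold lower. In 2269 genes (32.3%) every Triple_KO library lay above every WT library, and in 127 genes (1.81%) every one lay below. By edgeR on the recovered reads 2836 genes (40.3%) were called, 2680 (38.1%) higher and 156 (2.22%) lower. Without replicate B of Triple_KO the calls came to 1342 higher and 81 lower, and without its replicate A to 1453 higher and 77 lower.

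The balance of higher and lower calls depended on the scaling. With TMM factors, which set the bulk of genes equal, the median moved down by 0.36 to 0.08, and 830 genes (11.8%) were higher and 648 (9.21%) lower. With each library's median set equal, 630 genes (8.96%) were higher and 967 (13.7%) lower. With each library scaled to its listed reads, an alternative added after the data were seen, 1006 (14.3%) were higher and 494 (7.02%) lower and the median was 0.15. In all 4 scalings the same 630 genes were called higher and the same 120 lower, while 37 genes called higher against the library total were called lower with TMM. The gene groups below are given with their median, beside the 0.44 of all genes, and with the calls under TMM. Their counts stand beside the 33.5% of all genes called higher and the 1.71% called lower, or 11.8% and 9.21% with TMM. Their counts at 0 h stand beside the 6.08% higher and 3.41% lower of all genes tested at 0 h.

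**Figure D1:**
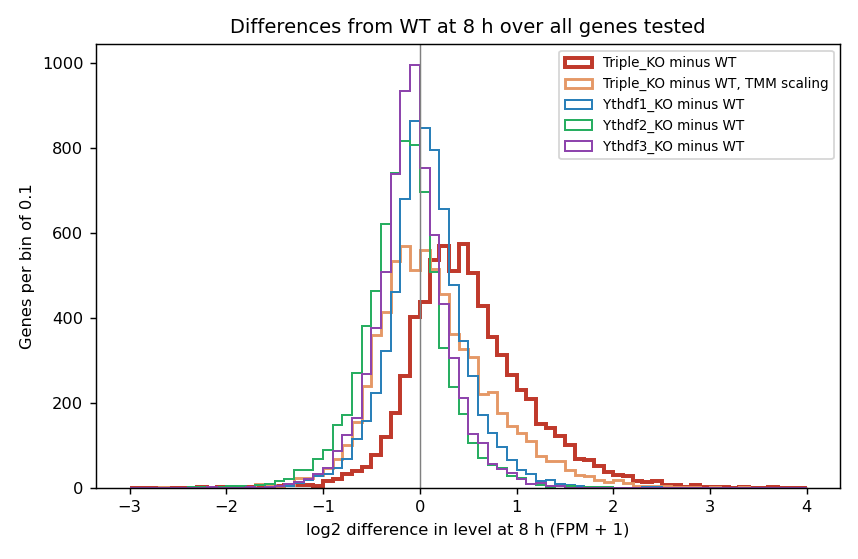
Number of genes (y axis) by log2 difference from WT at 8 h (x axis, bins of 0.1) over the 7033 genes tested, for Triple_KO on the deposited and the TMM scale and for each single knockout, all sharing the same WT libraries. The Triple_KO curve lies to the right with a median of 0.44, or 0.08 with TMM, while the single knockouts have medians of 0.05, -0.15 and -0.08.

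The Triple_KO pool was spread over more genes. The 100 most abundant genes of each library held 27.1, 28.0, 27.1 and 27.6% of the listed reads in Triple_KO, against 30.6, 30.7, 30.6 and 30.9% in WT, and the 10 most abundant held 7.07 ± 0.04% in Triple_KO and 8.00 ± 0.13% in WT (SD, n = 4 libraries). It took 442, 413, 441 and 423 genes to hold 50% of the listed reads in the Triple_KO libraries, against 346, 342, 344 and 337 genes in the WT libraries. Genes at 10 FPM or more numbered 5019 ± 112 in Triple_KO and 4050 ± 102 in WT, and genes at 100 FPM or more 802 ± 27 in Triple_KO and 636 ± 3.4 in WT. Both counts rest on the library total, of which listed genes held more in Triple_KO, so they do not by themselves show a wider spread. In each of these 5 values the groups did not overlap (exact permutation p = 0.0286, 0.0402 after Benjamini-Hochberg adjustment over 45 values of this kind). With the whole library as the denominator the order of the shares turned round, and the 100 highest genes held 11.3% in Triple_KO and 10.2% in WT.

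**Figure D2:**
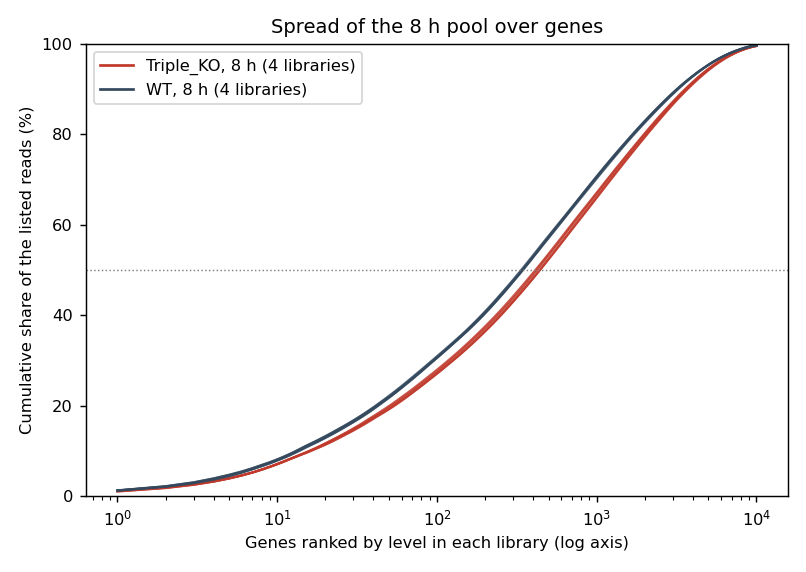
Cumulative share of the listed reads (y axis, percent) over genes ranked from the most abundant down (x axis, log scale), 1 line per library at 8 h. The 4 Triple_KO lines run below the 4 WT lines and cross 50% (dotted) at 413 to 442 genes, against 337 to 346 genes in WT.

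The most abundant transcripts differed little. Actb, cytoplasmic actin, had 4713, 4300, 4918 and 4001 FPM in the Triple_KO libraries, against 4049, 4164, 4045 and 4257 FPM in the WT libraries. The groups overlapped, although the log2 difference of 0.11 ± 0.03 passed the test (limma adjusted p = 0.00155). Ftl1, the ferritin light chain, had 3102, 2968, 3312 and 2893 FPM in the Triple_KO libraries, against 2781, 3011, 2825 and 3086 FPM in the WT libraries, again with overlap, and its log2 difference of 0.07 ± 0.03 did not pass the test (limma adjusted p = 0.0742). Eef1a1, the main elongation factor that brings aminoacyl-tRNA to the ribosome, did rise on the library-total scale, with 2946, 2822, 2972 and 3068 FPM in the Triple_KO libraries, against 2547, 2449, 2367 and 2428 FPM in the WT libraries (0.27 ± 0.03, limma adjusted p = 1.19e-10). With TMM scaling the signs of Actb, Ftl1 and Eef1a1 turned, to -0.28, -0.33 and -0.12. Wdr89 and the pseudogene Rplp2-ps1, also among the 10 highest, carried identical values in every library, so their reads cannot be separated.

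The 12 largest rises at 8 h ran from a log2 difference of 2.76 to 3.66. They were taken from 1670 named genes that were called higher, separated every library and reached 10 FPM in a group. Lsm10, a protein of the U7 snRNP that matures histone mRNA (chr4:126096562-126098584, mm10), had 15.4, 25.3, 22.96 and 18.8 FPM in the Triple_KO libraries, against 1.14, 1.003, 0.844 and 0 FPM in the WT libraries. The 4 WT libraries held 3 reads in all, against 124 reads in Triple_KO, a ratio of 28.8 after scaling for depth with an exact binomial 95% interval of 9.63 to 142, which covers counting error only. Commd5, a COMM domain protein (chr15:76899941-76901297), had 50.5, 62.1, 70.1 and 59.5 FPM in the Triple_KO libraries, against 4.57, 7.02, 4.22 and 10.6 FPM in the WT libraries, a log2 difference of 3.09 ± 0.34 (limma adjusted p = 1.65e-11). The rule took only genes whose groups do not overlap, so the separation of the libraries is no result.

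Rpp25l, a paralog of a protein subunit of RNase P (chr4:41712033-41713517), had 38.1, 61.3, 58.0 and 54.2 FPM in the Triple_KO libraries, against 5.71, 2.01, 10.1 and 7.92 FPM in the WT libraries (2.99 ± 0.33, limma adjusted p = 1.78e-11). Mrpl43, a protein of the large mitochondrial ribosomal subunit (chr19:45005014-45006442), had 69.6, 59.2, 87.4 and 73.0 FPM in the Triple_KO libraries, against 13.7, 11.04, 10.97 and 3.52 FPM in the WT libraries (2.88 ± 0.29, limma adjusted p = 6.15e-13). Slc25a33, a mitochondrial carrier of pyrimidine nucleotides, had 16.8, 14.4, 19.13 and 10.01 FPM in the Triple_KO libraries, against 2.28, 3.01, 0 and 0.880 FPM in the WT libraries. In Rpp25l and Mrpl43 the gap between the groups was wider than the range within either group, and in Slc25a33 it was narrower than the range of the Triple_KO libraries. The rule chose genes with large differences and separate groups, so the width of these gaps is no result either.

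Others belong to early development and to differentiated cells. Dppa3, also called Stella, a factor of naive stem cells, oocytes and germ cells (chr6:122626424-122630271), had 34.4, 24.5, 29.97 and 25.3 FPM in the Triple_KO libraries, against 2.28, 1.003, 3.38 and 2.64 FPM in the WT libraries (3.20 ± 0.37, limma adjusted p = 5.93e-11). Crxos, a homeobox gene, had 16.8, 17.3, 15.9 and 18.3 FPM in the Triple_KO libraries, against 2.28, 3.01, 0 and 2.64 FPM in the WT libraries. Nefm, the medium neurofilament chain of neurons, had 12.5, 13.7, 12.8 and 14.7 FPM in the Triple_KO libraries, against 1.14, 3.01, 0.844 and 0 FPM in the WT libraries. Both stayed below 20 FPM in every Triple_KO library, and a WT library of each had no read. Tmem37, a membrane protein of the calcium channel gamma family, averaged 29 ± 7.16 FPM in Triple_KO and 2.04 ± 1.37 FPM in WT, and Cbr3, a carbonyl reductase, 26.0 ± 5.61 FPM in Triple_KO and 2.96 ± 1.73 FPM in WT (SD, n = 4 libraries). Ccdc71 averaged 20.8 ± 6.40 FPM in Triple_KO and 1.62 ± 0.743 FPM in WT, and Eva1b 22.7 ± 2.87 FPM in Triple_KO and 2.78 ± 1.8 FPM in WT. Whether reads were counted by strand is not given in the sources used here, and Commd5, Ccdc71, Rpp25l, Mrpl43, Nefm and Slc25a33 overlap another annotated gene, so their levels are uncertain. For Commd5 the other gene lies on the same strand, where counting by strand would not separate the reads.

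All 12 rises were also called with TMM scaling and by edgeR on the recovered reads, and in each alternative in which they were tested. Ccdc71, Crxos, Nefm and Slc25a33 were not tested with a filter of 20 FPM. The difference was already there at 0 h for 8 of the 12, where 6.08% of all genes tested were higher. It had grown by 8 h for 8 of the 12, as tested by the genotype by time term, which passed upward for 11.9% of all genes. The 12 were chosen by the 8 h values that enter this term, so the choice favours growth and the count is no result about them. Dppa3 belonged to the first kind. At 0 h it averaged 31.01 ± 4.02 FPM in Triple_KO and 4.98 ± 2.84 FPM in WT, a log2 difference of 2.55 (limma adjusted p = 3.94e-08), and the further 0.65 at 8 h did not pass (adjusted p = 0.373). Lsm10 belonged to the second kind. At 0 h it averaged 27.6 ± 6.44 FPM in Triple_KO and 14.3 ± 3.96 FPM in WT, at 4 h 22.2 FPM in Triple_KO and 3.32 FPM in WT (2 libraries each), and at 8 h 20.6 FPM in Triple_KO and 0.747 FPM in WT. Its difference grew by 2.76 ± 0.54 between 0 h and 8 h (limma adjusted p = 3.60e-04). Of the 8 genes for which this term passed, 2 lost it in an alternative. For Slc25a33 the term, 2.41, no longer passed without replicate A of Triple_KO (adjusted p = 0.056) or without replicate B of WT (1.39, adjusted p = 0.152). For Cbr3 the term, 1.68, no longer passed with TMM (limma adjusted p = 0.0822), with median scaling (0.137) or with listed reads (0.0626). Nor did it pass without replicate A of Triple_KO (0.108), without its replicate B (0.0947) or without replicate B of WT (0.214, at a term of 1.03).

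**Figure D3:**
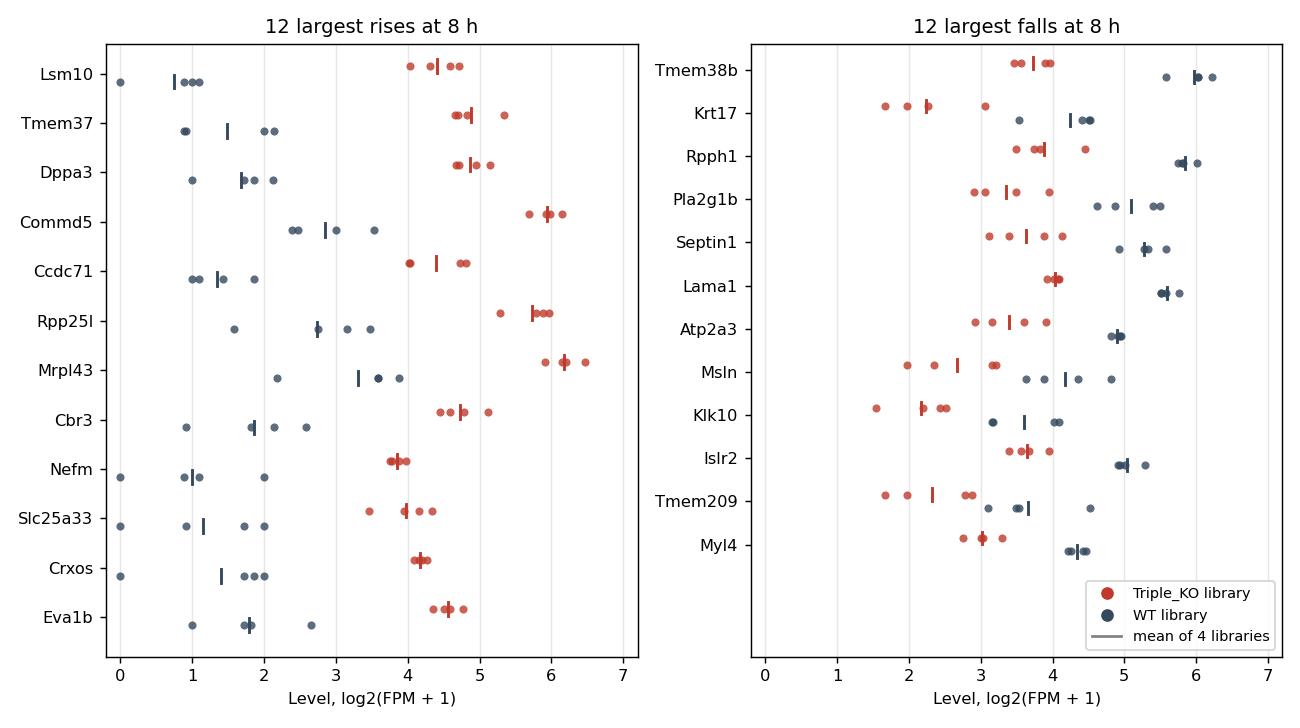
Level of the 12 largest rises (left) and the 12 largest falls (right) at 8 h, as log2(FPM + 1), with a point for each of the 4 Triple_KO (upper row of a gene) and 4 WT (lower row) libraries and a bar for their mean. By the rule that chose these genes, every Triple_KO library lies to the right of every WT library for the rises and to the left for the falls.

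The 12 largest falls were smaller, from a log2 difference of -1.32 to -2.24, out of 71 named genes that met the same rule. Tmem38b, a cation channel in the membrane of the endoplasmic reticulum (chr4:53825988-53862019), had 13.9, 10.8, 14.7 and 10.01 FPM in the Triple_KO libraries, against 46.8, 64.2, 73.4 and 64.2 FPM in the WT libraries, a log2 difference of -2.24 ± 0.20 (limma adjusted p = 5.09e-15). At 0 h it averaged 4.38 ± 0.888 FPM in Triple_KO and 5.003 ± 2.48 FPM in WT, a log2 difference of -0.07 that did not pass (limma adjusted p = 0.935). The difference between 8 h and 0 h was -2.17 ± 0.45 (limma adjusted p = 6.60e-04), and Tmem38b was the only fall among the 12 for which this term passed. Ythdf2_KO cells had 12.7 ± 5.15 FPM at 8 h, while Ythdf1_KO had 51.04 ± 11.3 FPM and Ythdf3_KO 36.5 ± 7.14 FPM. Tmem38b overlaps n-R5s185, annotated as an rRNA gene, on the same strand. Which of them gave the reads was not tested.

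Rpph1, the RNA component of RNase P (chr14:50807447-50807771), had 13.2, 20.9, 10.2 and 12.4 FPM in the Triple_KO libraries, against 52.5, 63.2, 54.9 and 55.4 FPM in the WT libraries (-1.97 ± 0.18, limma adjusted p = 2.44e-14). At 0 h it averaged 7.74 ± 1.67 FPM in Triple_KO and 26.7 ± 4.78 FPM in WT. Poly(A) RNA was sequenced, so these reads cover only the Rpph1 molecules kept by that selection. Rpp25l rose, and whether the changes are linked was not tested. Krt17, a keratin of stratified epithelia, had 7.32, 2.17, 3.83 and 2.94 FPM in the Triple_KO libraries, against 21.7, 22.1, 20.3 and 10.6 FPM in the WT libraries, with the last WT library apart from the other WT libraries. Lama1, the alpha 1 chain of basement membrane laminin (chr17:67697127-67822645), had 16.1, 15.9, 15.3 and 14.1 FPM in the Triple_KO libraries, against 44.5, 53.2, 44.7 and 46.6 FPM in the WT libraries (-1.56 ± 0.22, limma adjusted p = 2.66e-08), with little spread within either group.

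Pla2g1b, a secreted phospholipase A2, averaged 9.61 ± 3.59 FPM in Triple_KO and 34.3 ± 9.91 FPM in WT, and Septin1, a filament-forming GTPase, 11.9 ± 4.04 FPM in Triple_KO and 38.3 ± 7.01 FPM in WT (SD, n = 4 libraries). Atp2a3, a calcium pump of the endoplasmic reticulum, averaged 9.94 ± 3.34 FPM in Triple_KO and 28.96 ± 1.37 FPM in WT, and Islr2, a membrane protein with leucine-rich repeats, 11.6 ± 2.08 FPM in Triple_KO and 32.0 ± 4.17 FPM in WT. Msln, the surface glycoprotein mesothelin, averaged 5.82 ± 2.70 FPM in Triple_KO and 17.9 ± 6.98 FPM in WT, Klk10, a kallikrein protease, 3.66 ± 1.25 FPM in Triple_KO and 11.8 ± 4.44 FPM in WT, Tmem209 4.34 ± 2.10 FPM in Triple_KO and 12.6 ± 6.44 FPM in WT and Myl4, a myosin light chain, 7.202 ± 1.25 FPM in Triple_KO and 19.3 ± 1.75 FPM in WT. All 12 falls were called with TMM and by edgeR, and 9 of the 12 were already lower at 0 h, where 3.41% of all genes tested were lower. Klk10 and Tmem209 lost the call when a replicate was left out, and also with no filter on low values (limma adjusted p = 0.106 and 0.058). The adjusted p of Klk10 was 0.0963 without replicate B of Triple_KO, 0.0728 without replicate A of WT and 0.0624 without replicate B of WT. That of Tmem209 was 0.244 without replicate A of Triple_KO and 0.157 without replicate A of WT. Tmem38b, Rpph1, Septin1, Klk10, Islr2 and Myl4 overlap another annotated gene, Rpph1 inside the span of Ccnb1ip1, and their levels are uncertain for the same reason as above. For Tmem38b, Rpph1 and Islr2 an overlapping gene lies on the same strand, so even counting by strand would not separate the reads.

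Most m6A sites lie in a DRACH sequence, of which GGACT (with U for T in RNA) is a common form, so the GGACT nearest the stop codon was looked up in 1 GENCODE M21 transcript per gene, on the transcript strand only. All 12 rises had such a transcript, and 11 of the falls did, Rpph1 not being looked up. At least 1 GGACT was held by 11 of the 12 rises and by all 11 of these falls, compared with 89.9% of all tested genes with a transcript. A GGACT within 100 nt of the end of the stop codon was found in 5 of the 12 rises, 6 of the 11 falls and 23.7% of all tested genes with a transcript. A match is not a measured m6A site. The windows nearest to the stop codon are shown for 3 rises and 3 falls, with the motif in capitals and 10 nt on either side (GRCm38, the assembly of mm10):
Commd5, chr15:76901063-76901087, plus strand: gcaaactgcaGGACTgaaccctggt
Tmem37, chr1:120067712-120067736, minus strand: ggttatgatgGGACTtctctgatat
Eva1b, chr4:126149693-126149717, plus strand: actggatatgGGACTgcctcagggc
Krt17, chr11:100256387-100256411, minus strand: cacccgttaaGGACTcagctccttc
Tmem209, chr6:30482892-30482916, minus strand: ccaaacatttGGACTttgcttttaa
Islr2, chr9:58197662-58197686, minus strand: agggacggcaGGACTttaacaccct
The A of the motif lies in the coding sequence in Commd5 and Tmem37, 4 and 14 nt before the last base of the stop codon, and in the 3′ UTR in Eva1b, Krt17, Tmem209 and Islr2, 42, 3, 27 and 64 nt after it. GGACT close to the stop codon occurred among genes that rose and among genes that fell.

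The 3 targeted genes still gave reads at 8 h in the Triple_KO libraries. Ythdf2 (chr4:132184916-132212256) had 49.1, 37.5, 52.9 and 41.8 FPM in the Triple_KO libraries, against 12.6, 15.1, 5.06 and 10.6 FPM in the WT libraries, a rise of 2.05 ± 0.29 (limma adjusted p = 2.96e-08). Ythdf1 had 27.8, 21.7, 20.4 and 20.02 FPM in the Triple_KO libraries, against 19.4, 7.02, 13.5 and 7.04 FPM in the WT libraries (0.99 ± 0.29, limma adjusted p = 0.00589), and Ythdf3 had 24.2, 10.1, 20.4 and 19.4 FPM in the Triple_KO libraries, against 9.13, 8.03, 11.8 and 6.16 FPM in the WT libraries (0.97 ± 0.32, limma adjusted p = 0.0141). The groups overlapped for Ythdf3. With TMM scaling only Ythdf2 stayed past the threshold (adjusted p = 9.55e-06), while Ythdf1 came to 0.136 and Ythdf3 to 0.192. Ythdf1 also lost the call without replicate A of Triple_KO (0.105) or B of WT (0.0572), and Ythdf3 without replicate B of Triple_KO (0.173), A of WT (0.0554) or B of WT (0.053). At 0 h Ythdf1 averaged 42.5 ± 3.78 FPM in Triple_KO and 57.2 ± 8.05 FPM in WT, and Ythdf2 86.2 ± 11.4 FPM in Triple_KO and 51.5 ± 7.69 FPM in WT. Reads near the 3′ end can remain when another part of a gene is edited, so these levels do not check the knockout. Of the other m6A genes, Rbm15b, which helps to guide the methyltransferase, averaged 20.8 ± 3.46 FPM in Triple_KO and 5.45 ± 2.46 FPM in WT (1.83 ± 0.38, limma adjusted p = 9.06e-05). Among 19 tested writers, erasers and readers 7 rose, among them the methyltransferase Mettl16 (1.46), the complex subunit Virma (1.38) and the nuclear reader Ythdc1 (0.90), and 1 fell, Hnrnpa2b1 (-0.32). The median of the list, 0.39, lay near that of all genes, and with TMM 3 members were higher and 3 lower.

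Transcripts of the mitochondrial ribosome had the highest median of the lists with at least 10 tested genes. Of 68 tested genes of this list 50 rose and none fell, and the median difference was 0.89. With TMM 33 were still higher and 1 lower. Mrpl12 averaged 332 ± 29.7 FPM in Triple_KO and 94.9 ± 9.56 FPM in WT (1.795 ± 0.11, limma adjusted p = 1.78e-22), and Mrpl14 72.5 ± 9.47 FPM in Triple_KO and 12.4 ± 4.33 FPM in WT (2.50 ± 0.22, limma adjusted p = 1.68e-15). The list as a whole held 0.966 ± 0.012% of the listed reads in Triple_KO and 0.593 ± 0.021% in WT (SD, n = 4 libraries). At 0 h 18 of its genes were already higher and none lower, with a median of 0.32 against 0.07 for all genes.

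Cytosolic ribosomal proteins and the respiratory chain moved less than the average gene. Of 82 tested ribosomal protein genes 43 rose and none fell on the library-total scale, with a median of 0.19, but with TMM 1 was higher and 45 were lower. Their share of the listed reads was 13.2 ± 0.4% in Triple_KO and 14.3 ± 0.1% in WT, although of the whole library they held 5.43% in Triple_KO and 4.73% in WT. Rpl36al was unlike the rest, with 595, 573, 589 and 580.4 FPM in the Triple_KO libraries, against 254, 232, 231 and 253 FPM in the WT libraries (1.27 ± 0.07, limma adjusted p = 5.29e-25), and was still higher with TMM (0.87). Rpl4 averaged 2708 ± 76.1 FPM in Triple_KO and 2015 ± 72.5 FPM in WT, a rise of 0.43 ± 0.03 that matched the median of all genes. Of 80 tested genes of oxidative phosphorylation 26 rose and 1 fell (median 0.21), and with TMM 3 were higher and 27 lower. Uqcr10, a subunit of complex III, averaged 594 ± 28.8 FPM in Triple_KO and 343 ± 13.3 FPM in WT, and Ndufa2, a subunit of complex I, 250.2 ± 25.8 FPM in Triple_KO and 129 ± 18.03 FPM in WT. The gene that fell was the cytochrome oxidase subunit Ndufa4 (-0.21).

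The proteasome and the translation factors had medians near that of all genes. Of 36 tested genes of the proteasome list, which by its prefix also takes in Psmc3ip, 27 rose and none fell (median 0.42), and 5 were higher and none lower with TMM. Psmd7, a subunit of the regulatory lid, averaged 175 ± 14.9 FPM in Triple_KO and 53.3 ± 6.70 FPM in WT (1.70 ± 0.14, limma adjusted p = 3.48e-17), and Psma4, of the core particle, 188 ± 11.4 FPM in Triple_KO and 99.1 ± 8.30 FPM in WT. Of 58 tested genes of initiation, elongation and their modifying enzymes 30 rose and none fell (median 0.43), against 11 higher and 7 lower with TMM. Eif4ebp1, an mTOR-regulated inhibitor of cap-dependent translation, averaged 451 ± 33.0 FPM in Triple_KO and 219 ± 20.96 FPM in WT, and Eif2s2, a subunit of the factor that brings the initiator tRNA, 382 ± 16.2 FPM in Triple_KO and 221 ± 28.6 FPM in WT.

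Pluripotency genes did not move as a block. Of 27 tested naive genes 10 rose and 3 fell, with a median of 0.26, and with TMM 4 were higher and 6 lower. The F-box gene Fbxo15 had 52, 53.4, 40.8 and 36.5 FPM in the Triple_KO libraries, against 9.13, 9.03, 10.97 and 11.4 FPM in the WT libraries, and the estrogen-related receptor Esrrb had 75.4, 98.9, 100.1 and 84.2 FPM in the Triple_KO libraries, against 46.8, 43.1, 48.9 and 29.9 FPM in the WT libraries (1.08 ± 0.15, limma adjusted p = 3.17e-08). In both of them every Triple_KO library exceeded every WT library, as in 32.3% of all genes. They were named for their small p, which favours this, so it is no result. The transcription factors Klf2 (1.15) and Klf4 (0.76) also rose. The 3 that fell were the Nodal co-receptor Tdgf1 (-0.33), Tcl1 (-0.48), which binds the kinase AKT, and Dppa5a (-0.32). Tdgf1 lost the call without replicate A of Triple_KO (limma adjusted p = 0.125).

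Of 20 tested core pluripotency genes 6 rose and none fell, with a median of 0.44, and with TMM 5 were higher and 5 lower. Sall4, a zinc finger factor, had 96.7, 87.3, 105 and 90.1 FPM in the Triple_KO libraries, against 44.5, 30.1, 32.9 and 30.8 FPM in the WT libraries (1.44 ± 0.17, limma adjusted p = 8.07e-11). At 0 h it averaged 165 ± 12.4 FPM in Triple_KO and 147 ± 19.4 FPM in WT. Tdh, the threonine dehydrogenase of mouse stem cells, averaged 395 ± 26.6 FPM in Triple_KO and 265 ± 39.8 FPM in WT. Pou5f1 averaged 923 FPM in Triple_KO against 997 FPM in WT, and its log2 difference of -0.11 did not pass the test (limma adjusted p = 0.0571). Sox2 averaged 26.6 FPM in Triple_KO against 19.09 FPM in WT and did not pass either (adjusted p = 0.17). In a list of 30 tested stem cell transcripts held from general knowledge to carry m6A, 8 rose and 1 fell, and the median of 0.35 was below that of all genes, with 4 higher and 3 lower under TMM.

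Germline and imprinted genes were among the lists with the highest medians. Of 28 germline genes 11 were tested, of which 4 rose and none fell, in both scalings, and the median was 0.84. The genes that rose were 36.4% of those tested, against 33.5% of all genes, or 11.8% with TMM. A gene low in WT can pass the filter by its level in knockout cells alone, so this count and median do not speak for the list. Tex19.1, a mammalian germ cell and placenta gene that restrains transposons, had 78.4, 62.1, 58.7 and 44.7 FPM in the Triple_KO libraries, against 18.3, 15.1, 21.1 and 10.6 FPM in the WT libraries (1.86 ± 0.22, limma adjusted p = 2.17e-10). Of 33 imprinted genes 19 were tested, of which 9 (47.4%) rose and none fell (median 0.86), and 6 were higher and none lower with TMM. The limit set by the filter holds here too, so this count and median do not speak for the imprinted list. Cdkn1c, a cyclin-dependent kinase inhibitor, had 25.6, 32.5, 28.7 and 24.1 FPM in the Triple_KO libraries, against 2.28, 4.013, 8.44 and 2.64 FPM in the WT libraries (2.55 ± 0.30, limma adjusted p = 8.66e-11), and Commd1 averaged 115 ± 10.04 FPM in Triple_KO and 55.0 ± 8.598 FPM in WT. The growth factor Igf2 (1.69) and Phlda2 (1.54) rose too. Before the drug, at 0 h, 8 of the imprinted and 3 of the germline genes were already higher. Of 23 genes in the 2-cell-like list only 2 were tested. Both rose, Eif1a at 81.3 ± 12 FPM in Triple_KO and 16.1 ± 3.05 FPM in WT and the arginase Arg2 at 39.3 ± 8.49 FPM in Triple_KO and 20.45 ± 3.32 FPM in WT. With TMM 1 of them passed, and Arg2 did not (0.52, limma adjusted p = 0.092).

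Short-lived regulators were mostly too low at 8 h to test, and those that were tested leaned higher. Of 51 genes in the list 13 passed the filter, 6 rose and none fell, and the median was 0.84. With TMM 2 were higher and none lower. A gene kept in the test by its level in 1 genotype alone is favoured by such a filter, so this count does not speak for the list. Jund, an AP-1 factor, had 35.9, 46.9, 47.8 and 39.4 FPM in the Triple_KO libraries, against 7.99, 11.04, 11.8 and 12.3 FPM in the WT libraries (1.89 ± 0.28, limma adjusted p = 5.40e-08). Mycn had 13.9, 7.22, 12.1 and 13.5 FPM in the Triple_KO libraries, against 1.14, 2.01, 3.38 and 4.4 FPM in the WT libraries, and Max, the partner of Myc proteins and with Mycn 1 of 2 genes that rose among 6 tested of the Myc network, averaged 36.4 ± 3.93 FPM in Triple_KO and 15.3 ± 3.65 FPM in WT. Both were also called with TMM, and the median of the 6 was 1.003. Of the 12 genes of this network only these 6 passed the filter, and 33.3% of them rose, near the 33.5% of all genes. The filter limits this list in the same way, so its median does not speak for the network. Mycn lost the call without replicate B of Triple_KO (limma adjusted p = 0.0521) or without replicate A of WT (0.0732). The stress gene Gadd45b (1.39) and the survival factor Mcl1 (0.84) rose as well. For Jund, Mycn and Max the groups did not overlap, as in the 32.3% of all genes in which every Triple_KO library was higher. They were named for their small p, which favours this, so it is no result.

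Signalling lists held few tested genes, and their medians were 0.26 for the LIF pathway, 0.16 for FGF and ERK feedback, 0.27 for Wnt and 0.26 for BMP and Nodal. Of 11 genes of the LIF pathway 2 rose, the shared cytokine receptor Il6st (11.8 ± 4.55 FPM in Triple_KO and 3.82 ± 1.18 FPM in WT) and the phosphatase Ptpn11 (16.8 ± 1.83 FPM in Triple_KO and 6.91 ± 0.591 FPM in WT), and neither passed with TMM (adjusted p = 0.104 and 0.0773). Of 6 FGF and ERK feedback genes 2 rose, the receptor Fgfr1 and the factor Etv4, and neither passed with TMM (adjusted p = 0.353 and 0.264). Of 9 Wnt genes 3 rose, Cdx1 (25.2 ± 4.84 FPM in Triple_KO and 7.82 ± 2.57 FPM in WT), the destruction complex scaffold Axin1 (1.15) and Ctnnb1, which encodes beta-catenin (292 ± 7.85 FPM in Triple_KO and 247 ± 14.8 FPM in WT). With TMM 1 Wnt gene was higher and none lower, and the sign of Ctnnb1 turned, to -0.15. Of 8 BMP and Nodal genes none rose and Tdgf1 fell, and with TMM none were higher and 2 lower. Leaving out a replicate ended the calls of 5 of these genes. Il6st, Fgfr1, Etv4, Ctnnb1 and Tdgf1 did not pass without replicate A of Triple_KO (limma adjusted p = 0.232, 0.0816, 0.0855, 0.0521 and 0.125). Without its replicate B the same held for Fgfr1 (0.118), Etv4 (0.111) and Ctnnb1 (0.0951). Without replicate A of WT it held for Il6st (0.0579), Fgfr1 (0.0949) and Ctnnb1 (0.0858), and without replicate B of WT for Il6st (0.058) and Etv4 (0.338).

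Targets of p53 had a median well above that of all genes. Of 27 tested genes 16 rose and none fell, the median was 0.80, and with TMM 8 were higher and 1 lower. Sfn, the 14-3-3 sigma protein, had 141, 151, 149 and 123 FPM in the Triple_KO libraries, against 42.3, 29.1, 42.2 and 36.96 FPM in the WT libraries (1.89 ± 0.16, limma adjusted p = 1.18e-16). Aen, an apoptosis-linked nuclease, had 70.3, 49.1, 76.5 and 54.2 FPM in the Triple_KO libraries, against 17.1, 17.1, 11.8 and 19.4 FPM in the WT libraries (1.87 ± 0.21, limma adjusted p = 3.08e-11). The p53 ligase Mdm2 (1.22) and the metabolic phosphatase Tigar (2.07) rose. At 0 h 6 of the list were already higher and 1 lower. Of 11 tested Bcl2 family genes 4 rose and none fell (median 0.46), with 1 higher and 0 lower with TMM. They included both Bcl2l1, a survival factor (29.8 ± 1.47 FPM in Triple_KO and 10.48 ± 6.02 FPM in WT), and Bax, a pore-forming killer (501 ± 10.9 FPM in Triple_KO and 365 ± 20.6 FPM in WT). The difference of Bax, 0.46 ± 0.06, was about that of the median gene, while that of Bcl2l1 was 1.61 ± 0.29. Bax did not pass with TMM (limma adjusted p = 0.532).

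The integrated stress response list was split. Of 30 tested genes 10 rose and 4 fell, the median was 0.03, and with TMM 5 were higher and 13 lower. Pck2, the mitochondrial enzyme that makes phosphoenolpyruvate, averaged 96.1 ± 15.5 FPM in Triple_KO and 35.0 ± 7.07 FPM in WT (1.44 ± 0.15, limma adjusted p = 4.17e-13), and the transcription factor Cebpb rose too (1.74). The 4 that fell were the amino acid transporter Slc7a3 (-0.79), the folate enzymes Mthfd1l (-0.51) and Shmt2 (-0.28), and the tRNA synthetase Nars (-0.26). Of 21 tested chaperones of the endoplasmic reticulum 4 rose and none fell, the median was 0.14, below that of all genes, and with TMM 1 was higher and 7 were lower. Hspa5, the main Hsp70 of that compartment, averaged 696 ± 18.6 FPM in Triple_KO and 420.1 ± 21.4 FPM in WT, and Manf, which did not pass with TMM (adjusted p = 0.176), 93.0 ± 5.48 FPM in Triple_KO and 59.1 ± 6.32 FPM in WT. Of 27 tested heat shock chaperones 13 rose and 1 fell, Hspa4 (-0.47), with a median of 0.37, and with TMM 5 were higher and 9 lower. Hspa8, the constitutive cytosolic Hsp70, averaged 636 ± 39.2 FPM in Triple_KO and 318 ± 18.1 FPM in WT, whereas Hsp90aa1 averaged 1002 ± 53.8 FPM in Triple_KO and 764 ± 66.1 FPM in WT and had a log2 difference of -0.001573 with TMM.

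Glycolysis was the list with the most falls on the library-total scale. Of 32 tested genes 7 rose and 6 fell, the median was 0.16, and with TMM 3 were higher and 12 lower. The genes that fell were enzymes of the pathway itself: Aldoc (-0.88), Pfkl (-0.51), Eno1 (-0.38), Ldha (-0.32), Pkm (-0.27) and Pgk1 (-0.22). Those that rose included Ldhb, the other lactate dehydrogenase chain, which had 104, 129, 142 and 109.5 FPM in the Triple_KO libraries, against 39.96, 40.1, 45.6 and 45.8 FPM in the WT libraries (1.47 ± 0.14, limma adjusted p = 2.38e-14), and the glucose transporter Slc2a1, which had 172, 129, 161 and 156 FPM in the Triple_KO libraries, against 53.7, 69.2, 71.7 and 58.1 FPM in the WT libraries (1.28 ± 0.12, limma adjusted p = 2.42e-14). At 0 h 12 genes of the list were lower and 3 higher in Triple_KO. Of 22 tested genes of cholesterol synthesis 5 rose and none fell (median 0.27), and with TMM 1 was higher and 1 lower. They included Fdft1, which makes squalene (36.4 ± 4.71 FPM in Triple_KO and 17.3 ± 1.47 FPM in WT), and the mevalonate kinase Mvk (15.7 ± 3.92 FPM in Triple_KO and 6.96 ± 4.05 FPM in WT). Mvk lost the call with TMM (limma adjusted p = 0.0694), without replicate A of Triple_KO (0.122) and without replicate B of WT (0.233).

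Splicing regulators had a median well below that of all genes, and factors of RNA decay had one nearer to it. Of 28 tested SR and hnRNP splicing regulators 6 rose and 1 fell, with a median of 0.08, and with TMM 2 were higher and 10 lower. Hnrnpa0 averaged 479 ± 33.2 FPM in Triple_KO and 283 ± 31.3 FPM in WT and Hnrnpf 247 ± 8.93 FPM in Triple_KO and 156 ± 18.4 FPM in WT. Of 45 tested factors of deadenylation, decapping, the exosome and nonsense-mediated decay 11 rose and none fell (median 0.35), and with TMM 3 were higher and none lower. Exosc4, an exosome subunit, averaged 46.2 ± 5.03 FPM in Triple_KO and 11.8 ± 1.81 FPM in WT (1.89 ± 0.28, limma adjusted p = 5.86e-08), and the deadenylase subunits Cnot8 (1.31) and Cnot7 (0.78) rose. Exosc5 averaged 109 ± 10.9 FPM in Triple_KO and 73.3 ± 6.45 FPM in WT and did not pass with TMM (adjusted p = 0.335).

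Noncoding RNAs had the lowest median of the lists with at least 10 tested genes, at -0.26. Of 23 tested 4 rose and 4 fell, and with TMM 1 was higher and 7 were lower. Malat1, an abundant nuclear RNA, had 142.8, 121, 172 and 89.5 FPM in the Triple_KO libraries, against 263, 232, 261 and 212 FPM in the WT libraries (-0.91 ± 0.09, limma adjusted p = 5.78e-13). Every Triple_KO library was below every WT library, as in 1.81% of all genes, but Malat1 was named for its small p, which favours this. The snoRNA host Snhg3 (-1.26) and Dancr (-0.94) fell, next to Rpph1. Norad (1.32), Snhg15 (0.92), Snhg6 (0.89) and Neat1 (0.51) rose. At 0 h the list's median was already -0.65, with 8 genes lower and 1 higher.

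Cell cycle and histone genes had medians below that of all genes, 0.22 for G1/S and replication, 0.29 for mitosis and 0.19 for histones. Of 39 tested genes of G1/S and replication 11 rose and 1 fell, Lig1 (-0.22), and with TMM 4 were higher and 7 lower. The flap endonuclease Fen1 averaged 79.9 ± 12.2 FPM in Triple_KO and 27.9 ± 4.32 FPM in WT and the thymidine kinase Tk1 51.5 ± 6.44 FPM in Triple_KO and 20.9 ± 2.27 FPM in WT. Of 36 tested mitosis genes 8 rose and 1 fell, Espl1 (-0.56), and with TMM 1 was higher and 5 were lower. Birc5, of the chromosomal passenger complex, averaged 294 ± 4.66 FPM in Triple_KO and 172 ± 14.1 FPM in WT, and Cdc20, which activates the anaphase-promoting complex, 87.9 ± 14.9 FPM in Triple_KO and 54.4 ± 3.84 FPM in WT, although Cdc20 did not pass with TMM (limma adjusted p = 0.222). Of 20 tested histone genes 3 rose and 1 fell, H3f3b (-0.26), with H2ax at 278 ± 28.6 FPM in Triple_KO and 136 ± 9.55 FPM in WT and H1f10 at 17.7 ± 3.91 FPM in Triple_KO and 6.70 ± 0.374 FPM in WT, and with TMM 2 were higher and 3 lower.

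Of 21 tested Polycomb genes 7 rose and none fell (median 0.48), 33.3% against the 33.5% of all genes called higher, and with TMM 2 were higher and 3 lower. Share and median were close to those of all genes. Epop, an elongin-binding partner of PRC2, had 353, 354, 355 and 303 FPM in the Triple_KO libraries, against 115, 146, 99.6 and 103 FPM in the WT libraries (1.56 ± 0.10, limma adjusted p = 4.67e-21), and the histone-binding subunit Rbbp7 averaged 145 ± 8.71 FPM in Triple_KO and 93.8 ± 8.503 FPM in WT and did not pass with TMM (adjusted p = 0.146). Of 31 tested histone lysine methyltransferases and demethylases 8 rose and none fell, among them the demethylase Kdm5b (27.8 ± 3.05 FPM in Triple_KO and 10.3 ± 4.05 FPM in WT) and the methyltransferase Setdb1 (48.1 ± 8.96 FPM in Triple_KO and 23.2 ± 4.47 FPM in WT), with a median of 0.45, and with TMM 2 were higher and 1 lower. Of 11 tested genes of DNA methylation 1 rose, Mbd3 (129 ± 18.9 FPM in Triple_KO and 74.9 ± 5.74 FPM in WT), and 1 fell, the DNMT3 cofactor Dnmt3l (134 ± 20.6 FPM in Triple_KO and 203 ± 8.64 FPM in WT). The median of that list was 0.06, and with TMM 1 was higher and 4 were lower. Dnmt3l had a log2 difference of -0.72 at 0 h (limma adjusted p = 5.51e-07). Of 69 tested Zfp genes 19 rose and none fell (median 0.59), and with TMM 8 were higher and 1 lower. Zfp771 had 46.9, 44.02, 47.2 and 39.4 FPM in the Triple_KO libraries, against 5.71, 13.04, 10.97 and 7.04 FPM in the WT libraries (2.21 ± 0.28, limma adjusted p = 8.86e-10), and Zfpl1 averaged 21.3 ± 3.34 FPM in Triple_KO and 7.15 ± 2.06 FPM in WT. In all 376 Zfp genes were listed and most of them failed the filter.

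**Figure D4:**
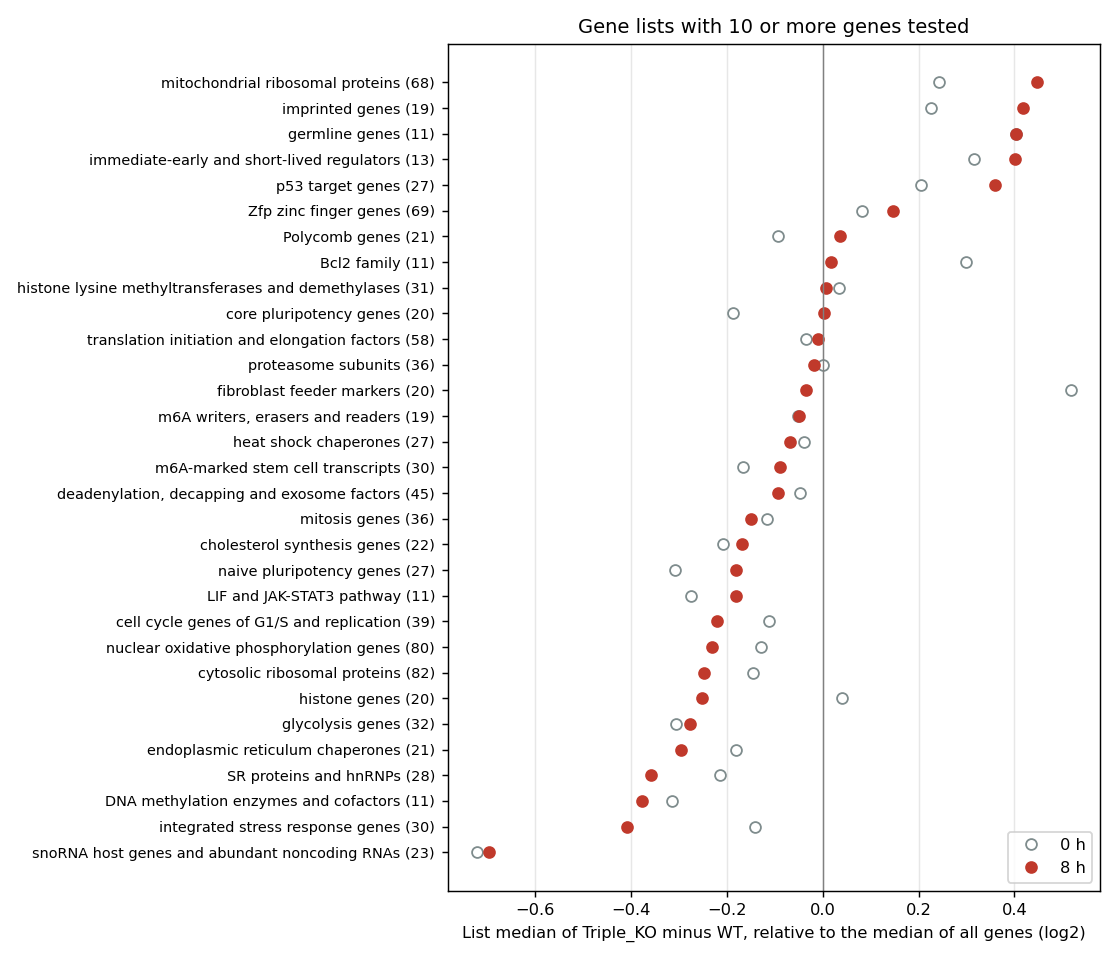
Median log2 difference between Triple_KO and WT (x axis), relative to the median of all genes tested at that time, for each list with 10 or more genes tested at 8 h (rows, number tested in brackets), at 0 h (open) and 8 h (filled). Mitochondrial ribosomal proteins lie highest at 8 h, at 0.45, and noncoding RNAs lowest, at -0.70.

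Markers of other cell types also differed between the groups at 8 h. Of 9 tested endoderm markers 5 fell and 2 rose (median -0.44), and with TMM 6 were lower and 2 higher, with a summed level of 1256 to 1468 FPM in Triple_KO and 1391 to 1508 FPM in WT. The 5 that fell were basement membrane genes, Lama1, Lamb1 (-0.76), Lamc1 (-0.39) and the collagen Col4a1 (-0.89), and the lipoprotein Apoe (-0.47). The 2 that rose were the epithelial keratins Krt18 (128 ± 13.8 FPM in Triple_KO and 32.6 ± 2.66 FPM in WT) and Krt8 (177 ± 26.5 FPM in Triple_KO and 78.8 ± 10.45 FPM in WT), which were also the 2 of 6 tested trophectoderm markers that rose (median 0.89, 2 higher and 1 lower with TMM). Of 20 tested fibroblast markers 10 rose and none fell (median 0.40), and their summed level was 1215 to 1515 FPM in Triple_KO and 1064 to 1133 FPM in WT. They included the smooth muscle actin Acta2 (217.3 ± 19.14 FPM in Triple_KO and 148 ± 5.39 FPM in WT) and the collagen Col1a1 (53.3 ± 9.69 FPM in Triple_KO and 24.95 ± 6.25 FPM in WT), and 9 of the list were already higher at 0 h. With TMM 2 fibroblast markers were higher and 2 lower, and Acta2 did not pass (limma adjusted p = 0.287). Of 5 tested neuroectoderm markers Tubb3 and Stmn2 rose (median 0.42), and neither passed with TMM (adjusted p = 0.494 and 0.907). Tubb3 also lost the call without replicate B of Triple_KO (0.294), and both lost it without replicate A of WT (0.235 and 0.0565). No mesoderm marker reached the filter, and their summed level was 5.13 to 7.94 FPM in Triple_KO and 1.69 to 4.4 FPM in WT. Markers listed at 0 in all 8 libraries included Gata6, Sox17, Foxa2, Pdgfra and Ttr of the endoderm list, Elf5 and Tpbpa of the trophectoderm list, Pax6, Pax3 and Rax of the neuroectoderm list and Mesp1, Kdr and Foxf1 of the mesoderm list. No fibroblast marker was at 0 in all of them. The mitochondrial ribosomal genes Mrpl21 and Mrpl41 and the tRNA synthetase gene Sars, which every cell uses, were listed at 0 in all 8 as well, so a 0 says only that the gene is listed at 0. The part of such cells in the differences above was not tested.

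Among classes by exon junctions, those with the fewest had the highest median. For 6770 of the 7033 genes (96.3%) a GENCODE M21 transcript gave the structure. In the quintile of genes with the fewest junctions per kb of mRNA (at most 1.76) the median difference was 0.74 and 45.9% of genes were higher, and the medians of the next quintiles were 0.50, 0.42 and 0.37. In the quintile with the most junctions (at least 5.55) the median was 0.30 and 25.2% were higher. With TMM 23.6% of the first quintile were higher and 5.39% lower, and in the last quintile 4.73% were higher and 12.3% lower. The 303 genes with 1 or 2 exons had a median of 1.08 with 58.4% higher, against 0.43 and 32.6% for the other genes. Of the 12 largest rises 5 had 1 or 2 exons, compared with 4.48% of all genes, and none of the 11 falls with a structure had so few.

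The higher median of the class with the fewest junctions was also seen among genes of like level before the drug. Within each quintile of the mean level at 0 h, the genes with the fewest junctions had a higher median at 8 h than the other genes, from 0.74 against 0.42 in the lowest quintile of level to 0.62 against 0.26 in the highest. At 0 h the medians ran the same way on a smaller scale, 0.17 in the quintile with the fewest junctions and 0.01 in that with the most. Genes with an internal exon of 400 nt or more, 1046 in number, had a median of 0.61, against 0.41 for the rest. The density of GGACT made less difference, with a median of 0.39 in the lowest quintile and 0.51 in the highest. TATTTAT in the 3′ UTR, the core of AU-rich elements, was present in 22.9% of the genes, whose median of 0.45 was close to the 0.44 of the others. Genes are not independent replicates, and these classes are given as descriptions without a test.

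Among classes by the early change in WT, the one that declined most had the highest median at 8 h. Genes were ranked by the change in WT between 0 h and 4 h, libraries that do not enter the 8 h comparison, a grouping chosen after the data were seen. All of them had passed the filter at 8 h, and a gene that declined in WT can pass it by its level in Triple_KO alone. Such genes are favoured, so the order of the classes is in part set by the filter. How large that part is was not tested. In the quintile that declined most, by 0.86 or more on the log2 scale, the median difference at 8 h was 0.79, with 40.8% of genes higher and 0.148% lower. The medians of the next quintiles were 0.60, 0.43 and 0.30. In the quintile that rose relative to the library total, by 0.12 or more, the median was 0.22, with 26.1% higher and 4.43% lower.

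**Figure D5:**
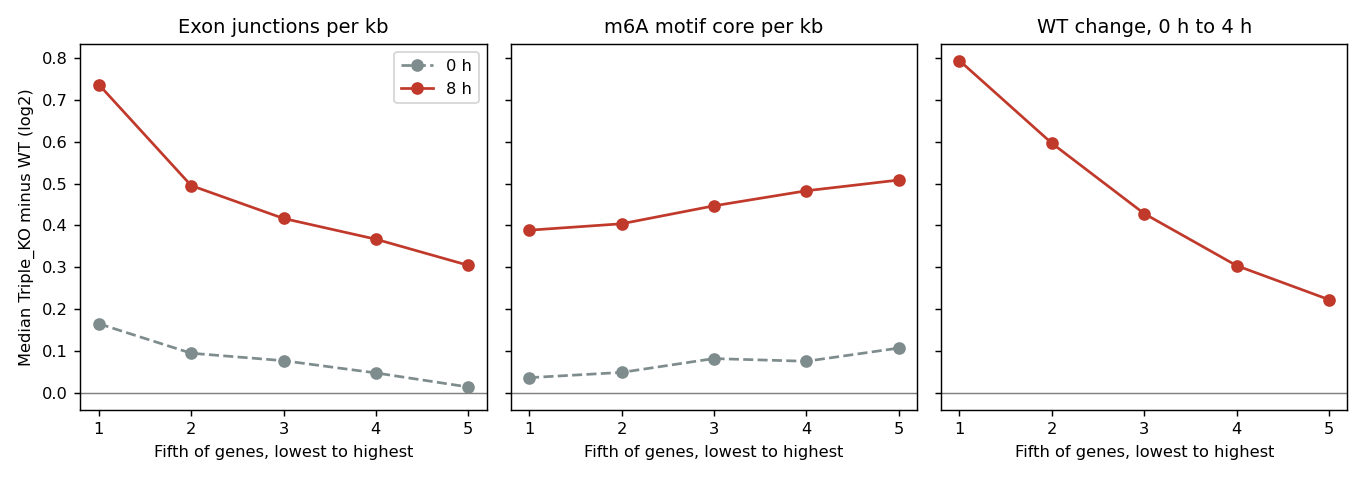
Median log2 difference between Triple_KO and WT (y axis) for quintiles of genes (x axis) by exon junctions per kb, GGACT per kb and the WT change from 0 h to 4 h, at 8 h (solid) and, in the first 2 panels, at 0 h (dashed). The 8 h median runs down from 0.74 to 0.30 with junctions and from 0.79 to 0.22 with the WT change, and up from 0.39 to 0.51 with GGACT.

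The Triple_KO pool was also set against the single knockouts. Compared with the mean of Ythdf1_KO, Ythdf2_KO and Ythdf3_KO at 8 h, a contrast that uses no WT library, 3643 genes (51.8%) were called, 3552 (50.5%) higher and 91 (1.29%) lower, with a median of 0.51. Without replicate A of Triple_KO 2113 were called, and without its replicate B 2125. The single knockouts gave 6 replicate means, against 2 for WT, so the counts of the 2 contrasts have unlike precision, and the contrasts share the Triple_KO libraries. Of the 2359 genes higher than WT, 2149 were also higher than the single knockouts, and of the 120 lower genes 56 were also lower. All 12 of the largest rises and 6 of the 12 falls passed in this contrast, among them Krt17, which lost the call without replicate B of Triple_KO (-0.85, limma adjusted p = 0.0942). Commd5 averaged 60.6 FPM in Triple_KO, against 5.75 FPM in Ythdf1_KO, 5.23 FPM in Ythdf2_KO and 4.80 FPM in Ythdf3_KO (3.33 ± 0.28, limma adjusted p = 1.88e-16). Tmem37 averaged 29 FPM in Triple_KO, against 15.1, 9.67 and 3.78 FPM in Ythdf1_KO, Ythdf2_KO and Ythdf3_KO (1.74 ± 0.31, limma adjusted p = 4.58e-06).

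Lama1 was among the 6 falls that did not pass, with 15.4 FPM in Triple_KO and 18.9, 20.1 and 20.52 FPM in Ythdf1_KO, Ythdf2_KO and Ythdf3_KO, a difference of -0.32 in limma (adjusted p = 0.123). Against WT, which all 4 comparisons share, Ythdf1_KO had 83 genes (1.18%) higher and 46 (0.654%) lower at 8 h, 1.83% in all. Ythdf2_KO had 67 (0.953%) higher and 409 (5.82%) lower, 6.77% in all, and Ythdf3_KO 18 (0.256%) higher and 172 (2.45%) lower, 2.7% in all. Their medians were 0.05, -0.15 and -0.08, beside the 0.44 of Triple_KO.

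Most of the differences at 8 h were not called before actinomycin D. At 0 h 838 of 8833 genes tested (9.49%) differed between Triple_KO and WT, 537 (6.08%) higher and 301 (3.41%) lower, with a median of 0.07. Of the 2359 genes higher at 8 h, 448 were also higher at 0 h, and of the 120 lower genes 85 were also lower at 0 h. The change in the difference between 0 h and 8 h passed for 1057 genes (12%), 1052 (11.9%) of them upward and 5 (0.0566%) downward, with a median change of 0.37. Without a replicate of Triple_KO this count was 406 (A) or 380 (B), and without a replicate of WT 657 (A) or 658 (B). Of the genes higher at 8 h 877 passed this test, and of the lower ones 2. With TMM scaling the count was 246.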

How the data were processed

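Poly(A) RNA was sequenced near its 3′ end. The authors deposited 1 table of FPM, which is RPM scaled to the library total, for 22338 transcripts in 50 libraries. The tools were CASAVA 1.8.2 and Bowtie2 and the build was mm10, per the submitters' processing notes. The annotation, the use of strand and the treatment of reads with several positions are not given in the sources used here.

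Transcripts were named from RefSeq (21729) and GENCODE M21 (120), and 489 without a name were kept, each under its transcript identifier and counted as a gene. Repeats of a transcript (2169) were dropped and distinct transcripts summed (652 genes), giving 19455 genes, of which 2151 shared their values with another gene and cannot be separated from it. Low values were whole multiples of 1 read within a tolerance of 0.1 in 100% of values, which gave the library totals of 875830 to 1698700 reads at 8 h and whole reads for edgeR. Intervals cover counting error only.

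The 2 duplicates of a replicate were averaged as log2(FPM + 1), so fold changes of low genes are understated. Genes that reached 5 FPM in 2 or more of 10 replicate means were tested with limma 3.58 (R 4.3, trend, Benjamini-Hochberg adjustment at 0.05). All 5 genotypes shared 1 estimate of the spread. The 0 h difference and the genotype by time term came from 20 means (8833 genes). Single values per library had two-sided exact permutation tests. The limma step was tested on simulated data. edgeR 4.0 on recovered reads and the scalings, filters and left-out replicates of the closing section were alternatives. Replicate letters did not pair the samples.

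Named genes were the 12 largest rises and 12 largest falls among called genes whose libraries separated, with at least 10 FPM in a group and no gene model number or pseudogene, the 2 called members of each list with the smallest p, the 3 Ythdf genes and the 10 highest genes of each pool. Genes given with a log2 difference alone were chosen after their values were seen. The members and lists were chosen with earlier results of these data known. Lists by prefix left out most genes that only share the letters of the prefix.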

Additional observations from a re-analysis of the deposited data

Results flagged for a closer look

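Krt17 in WT at 8 h had 1 library apart from the others, a duplicate of replicate B at 10.6 FPM (10.56), while the other 3 lay between 20.3 and 22.1 FPM. The gap was 0.842 of the whole range. Chance alone sets a sample this far apart in about 1 in 20 groups.

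The difference between Triple_KO and WT was not the same at 8 h as at 0 h for 11 genes among the 12 largest rises, the 12 largest falls and the 3 Ythdf genes, by the genotype by time term of limma. That term passed for 12% of all 8833 genes tested, and the choice of rises and falls by their 8 h values favours it. It had grown by 2.76 on the log2 scale for Lsm10, 2.41 for Slc25a33, 2.36 for Ccdc71, 2.21 for Rpp25l and 2.17 for Eva1b (2.165). For Commd5 it had grown by 1.90, for Mrpl43 by 1.85 and for Cbr3 by 1.68. Tmem38b went the other way, with -2.17. For Ythdf1 the term was 1.40, with a log2 difference of 0.99 at 8 h and -0.41 at 0 h, and for Ythdf2 it was 1.31, with 2.05 at 8 h and 0.73 at 0 h. The term no longer passed in 6 alternatives for Cbr3, in 2 for Slc25a33 and in 2 for Ythdf2, whose adjusted p was 0.0521 with TMM and 0.0981 with median scaling.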

How the results depend on the processing

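With TMM, median scaling and listed reads, 1478, 1597 and 1500 genes differed between Triple_KO and WT, 830, 630 and 1006 of them higher and 648, 967 and 494 lower, and edgeR with TMM gave 1007 higher and 807 lower. The median difference became 0.08 (0.07566) with TMM, 0.05 (0.04971) with edgeR and TMM and -0.06 (-0.06066) with median scaling. Against the single knockouts 1615, 1673 and 1634 genes passed under these scalings, and 2329 with a filter of 20 FPM, where fewer genes were tested. The genotype by time term passed for 246, 350 and 276 genes, and for 671 without a filter. Signs turned under TMM, edgeR with TMM, median scaling and listed reads for Actb (-0.2801, -0.278, -0.3856, -0.1947), Eef1a1 (-0.1243, -0.1199, -0.23, -0.03895), Ftl1 (-0.3263, -0.3278, -0.4319, -0.2409), Rplp0 (-0.2968, -0.2986, -0.4025, -0.2114), Rplp1 (-0.3413, -0.3437, -0.447, -0.256), Rps20 (-0.2427, -0.2402, -0.3484, -0.1574) and Ctnnb1 (-0.1503, -0.1537, -0.2573, -0.06522). Under the first 3 they turned for Rpl41 (-0.07605, -0.07484, -0.1817) and Hsp90aa1 (-0.001573, -0.005079, -0.1075), and under median scaling alone for Rpl4 (-0.07392), Bax (-0.04276) and Stmn2 (-0.08473). With the whole library as denominator the difference in share turned to 0.2547 points for the 10 highest genes, 1.093 for the 100 highest, 0.6929 for ribosomal proteins and 0.179 for oxidative phosphorylation. Under median scaling alone Fdft1, H1f10, Hnrnpf, Mbd3, Setdb1 and Tdh lost their calls. Leaving out 1 replicate gave 1423 to 1838 genes called, 1342 to 1754 higher and 77 to 84 lower, 2113 to 2125 against the single knockouts and 380 to 658 for the time term; where an arm then had 1 replicate, it was assumed to vary like the others. With a replicate block 2465 genes were called, 2347 higher and 118 lower, 3633 against the single knockouts and 1063 for the time term. Thinning to equal depth, added like the scaling to listed reads after the data were seen, gave 1874 higher and 108 lower. Counting genes with identical values once, also added then, turned no sign in the make-up of the pool. The correlation of A minus B between Triple_KO and WT was 0.016, so the letters did not pair the samples. The cause of these changes was not tested.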
